A study of Arabidopsis thaliana with 12 samples.

Results

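The pericentromere core of Arabidopsis thaliana chromosome 4 was described through the 500 bp windows that lie within 1 Mb of a centromere position set at 3.9 Mb. Windows were taken where both deposited tables of small interfering RNA (siRNA) regions list them, with file starts from 2900000 to below 4900000, which gave 348 of the 4213 windows common to both tables. The table of replicate 1 listed 500 windows in this interval and that of replicate 2 listed 351. The cores of chromosomes 1, 2, 3 and 5, cut in the same way, held 579, 141, 188 and 539 windows. Small RNA libraries were made from whole seedlings 10 days old, grown on MS medium at 22 °C under days of 16 h light and 8 h dark, with 2 replicates of each of 6 genotypes. The genotypes were wild type (WT), arid2-/-arid3-/-arid4-/- (arid2/3/4), epcr1-/-epcr2-/- (epcr1/2), nrpd1-/-, nrpe1-/- and hda6-/-, with no allele or treatment added. Each window carries a score, a whole-number abundance whose depth and scaling no source used here gives. Because whole seedlings were used, fewer cells making a small RNA and less of it per cell cannot be told apart.

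Heterochromatic siRNAs of plants come from transcripts of RNA polymerase IV, whose largest subunit is NRPD1, which are copied into double-stranded RNA and diced. They guide DNA methylation at sites where RNA polymerase V, with its largest subunit NRPE1, makes a scaffold transcript. HDA6 is a histone deacetylase that acts in silencing of repeats and transposons, and the ARID and EPCR proteins are components of the PEAT complexes, which the series title links to histone deacetylation and heterochromatin silencing. Pericentromeres of Arabidopsis are rich in transposons and flank arrays of a short satellite at the centromere.

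The 348 windows were sorted into kinds of sequence from the genome alone (RefSeq TAIR10.1). The kinds were set after scores had been seen, so they are used as description and carry no test. A window whose best-matching spacing was under 50 bases, with at least 40% of bases matched, was first set aside as a short tandem repeat. Of the rest, a window was called satellite where at least 40% of bases matched the bases about 178 further on, and none fell between 39.6% and 45.4%. All these matches were counted over the window with 200 bases on each side, so neighbouring sequence enters them. There were 181 satellite windows, of which 98 formed an outer block at chr4:2919001-3048000 and 83 a central block at chr4:3950501-4012000. A second tandem repeat, with a unit of 159 bases, made up 14 windows at chr4:4013001-4065500. A further 11 windows held short tandem repeats, and 142 were other sequence, called dispersed here. Of those 142, 91 had a median of more than 10 genomic copies of their 24-base words, 48 had at most 10, and 3 were mostly single-copy.

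The units below are shown because the main contrasts of the core separate by them. All are from chromosome 4 of TAIR10.1 and are written 5′ to 3′. Unit A is from the window with the highest WT score (chr4:3954144-3954321, plus strand), unit B from the window most lowered in hda6 (chr4:3966562-3966739, plus strand) and unit C from the outer block (chr4:2927773-2927950, minus strand). Capitals in B and C mark bases that differ from unit A at the same position, without gaps. Units B and C are the stretches of their windows, on either strand, that best match unit A. At that best match unit B was 88.8% and unit C 83.7% identical to unit A.
Satellite unit A: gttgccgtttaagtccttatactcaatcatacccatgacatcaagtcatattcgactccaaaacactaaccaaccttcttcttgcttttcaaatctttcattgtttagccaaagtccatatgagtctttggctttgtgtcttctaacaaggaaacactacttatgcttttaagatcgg
Satellite unit B: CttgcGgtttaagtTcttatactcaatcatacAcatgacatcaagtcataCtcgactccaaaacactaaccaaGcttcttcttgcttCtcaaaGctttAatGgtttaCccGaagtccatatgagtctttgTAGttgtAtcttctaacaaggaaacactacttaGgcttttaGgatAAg
Satellite unit C: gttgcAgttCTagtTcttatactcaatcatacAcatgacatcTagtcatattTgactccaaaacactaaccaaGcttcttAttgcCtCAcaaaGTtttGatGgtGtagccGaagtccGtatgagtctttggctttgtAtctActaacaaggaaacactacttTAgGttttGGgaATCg
The second tandem repeat is shown by 2 adjoining units, chr4:4048501-4048659 and chr4:4048660-4048818 on the plus strand, with capitals in the latter for bases that differ from the former. Compared at the same position without gaps, they were 77.4% identical. The latter unit holds an extra t near its end, so capitals after it partly mark a shift and not different bases.
Second repeat unit 1: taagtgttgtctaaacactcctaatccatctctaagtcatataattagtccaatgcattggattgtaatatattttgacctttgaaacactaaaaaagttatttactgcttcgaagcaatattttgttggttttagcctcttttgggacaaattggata
Second repeat unit 2: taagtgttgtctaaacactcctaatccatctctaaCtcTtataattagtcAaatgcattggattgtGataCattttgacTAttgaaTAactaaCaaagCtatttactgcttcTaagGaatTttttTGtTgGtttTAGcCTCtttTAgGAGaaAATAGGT
The short tandem repeats are shown by a stretch with the plant telomere motif (chr4:3254101-3254240, plus strand, capitals on CCCTAAA) and by the start of a GAA array (chr4:3655501-3655560, plus strand, capitals on GAA).
Telomere-motif repeat: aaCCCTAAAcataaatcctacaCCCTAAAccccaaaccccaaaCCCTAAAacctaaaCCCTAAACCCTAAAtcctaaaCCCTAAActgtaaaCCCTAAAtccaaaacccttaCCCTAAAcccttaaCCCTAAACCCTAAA
GAA repeat: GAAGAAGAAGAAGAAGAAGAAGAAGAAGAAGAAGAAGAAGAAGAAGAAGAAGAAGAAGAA
Dispersed sequence is shown by the window most raised in hda6 (chr4:4101601-4101900), by the window most lowered in epcr1/2 (chr4:3768101-3768400) and by the one most lowered in nrpe1 (chr4:3360101-3360400), all on the plus strand. Capitals mark bases inside a 24-base word that occurs once in the genome, which were 47.7% of the first stretch, all of the second and 89.0% of the last.
Most raised in hda6: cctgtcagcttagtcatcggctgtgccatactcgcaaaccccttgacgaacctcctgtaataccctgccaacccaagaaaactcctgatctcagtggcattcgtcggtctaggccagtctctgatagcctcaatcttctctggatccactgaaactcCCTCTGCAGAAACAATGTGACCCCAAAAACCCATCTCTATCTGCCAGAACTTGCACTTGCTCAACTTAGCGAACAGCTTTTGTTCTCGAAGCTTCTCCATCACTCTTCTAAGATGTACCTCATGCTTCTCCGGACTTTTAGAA
Most lowered in epcr1/2: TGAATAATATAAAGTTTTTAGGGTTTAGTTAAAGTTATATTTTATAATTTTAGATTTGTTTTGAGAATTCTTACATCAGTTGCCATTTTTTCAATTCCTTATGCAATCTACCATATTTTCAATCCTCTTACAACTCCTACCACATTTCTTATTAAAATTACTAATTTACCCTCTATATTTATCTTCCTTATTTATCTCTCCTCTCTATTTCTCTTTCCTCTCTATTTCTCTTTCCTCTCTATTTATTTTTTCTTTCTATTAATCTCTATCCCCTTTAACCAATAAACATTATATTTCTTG
Most lowered in nrpe1: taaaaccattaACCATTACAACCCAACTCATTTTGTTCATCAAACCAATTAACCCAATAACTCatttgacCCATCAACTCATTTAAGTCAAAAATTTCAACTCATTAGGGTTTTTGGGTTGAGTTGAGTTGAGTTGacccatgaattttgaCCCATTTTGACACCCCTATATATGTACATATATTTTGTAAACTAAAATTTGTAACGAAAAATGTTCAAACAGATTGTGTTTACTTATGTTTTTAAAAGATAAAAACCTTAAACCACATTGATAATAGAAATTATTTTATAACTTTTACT

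In WT the windows were uneven along the interval. The 100 kb that begin at 2.9 Mb held 91 windows, those at 3.9 Mb 64 and those at 4.0 Mb 49. The windows formed 129 runs or singles, of which the longest spanned 45 adjoining windows at chr4:3965501-3988000. The median WT score was 203 in replicate 1 and 158.5 in replicate 2 over the core, against 209 and 165 over all 4213 windows. The central satellite block had the highest WT medians, at 664 and 730, while the outer block had 176.5 and 148. Sharing of sequence limits what a window score stands for: by families with at least 50% of 24-base words in common, the 348 windows formed 186 families, and the largest held 71 windows of the outer block.

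**Figure D1:**
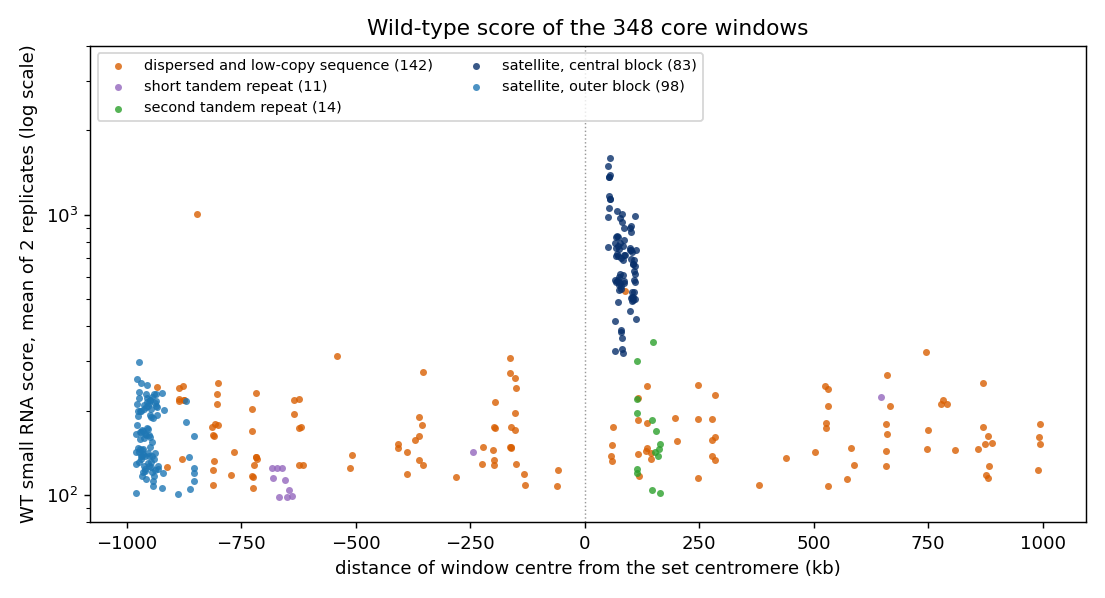
Mean WT score of each of the 348 core windows on a log axis against distance in kb from the set centromere, coloured by kind of sequence. Most central satellite windows stand above the windows around them, and the highest of them scored 1676 and 1519 in the 2 replicates.

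The window with the highest WT score, chr4:3954001-3954500 in the central block, scored 1676 in replicate 1 and 1519 in replicate 2. It scored 41 and 4 in nrpd1, 2592 and 1687 in nrpe1, 6136 and 7125 in arid2/3/4, 3913 and 4393 in epcr1/2, and 927 and 1076 in hda6. The arid2/3/4, epcr1/2 and nrpe1 values stood above both WT values and those of hda6 below them, with no overlap. The change was 1.99 ± 0.31 (SE) in arid2/3/4 (limma adjusted p = 5.6e-10) and 1.33 ± 0.31 in epcr1/2 (3e-05), on the log2(score + 89) scale used for every fitted change. The window was not called in hda6, at -0.63 ± 0.31 (adjusted p = 0.054), or in nrpe1, at 0.37 ± 0.31 (0.3).

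The loss of signal in nrpd1 is described without a test, because the authors' lists hold windows that are low in nrpd1. All 348 windows were below WT in both replicates. The highest nrpd1 score was 41 in replicate 1 and 9 in replicate 2, and 21 and 105 windows were at 0. The WT score of these windows was at least 97 and 98. Over all 4213 windows it was at least 95 and 98, while scores of every mutant reached 0 in at least 1 replicate. Windows may thus also have been chosen through a high WT score, though how they were chosen is not given. Calls lowered against WT, in any mutant, carry this limit. The core made up 8.63% and 10.1% of the summed score of all windows in WT, 15.6% and 17.2% in arid2/3/4, 14.0% and 14.5% in epcr1/2, 13.2% and 17.5% in nrpd1, 16.2% and 17.1% in nrpe1, and 8.35% and 9.37% in hda6. A linear scaling of a library leaves its share as it is. The share was higher than in WT in both replicates of arid2/3/4, epcr1/2, nrpe1 and nrpd1, where little signal was left, and lower in both of hda6. In nrpe1 the deposited scores of all windows summed to 994165 and 672482, below the 1260502 and 1016199 of WT. Those of the core summed to 161435 and 114736, above the 108794 and 103136 of WT.

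In arid2/3/4, siRNA scores of the core were higher than in WT in most windows. Of the 348, 312 (89.7%) were raised, against 38.7% raised over all windows tested, and 13 (3.74%) were lowered, against 28.9%. The median change was 1.16 in the core and -0.01 over all windows. Medians by replicate were 461.5 and 539 against 203 and 158.5 in WT. All 181 satellite windows were raised, with a median change of 1.24. In epcr1/2, 324 windows (93.1%) were raised, against 52.2% over all windows, and 5 (1.44%) were lowered, against 14.8%. The median change was 1.07 in the core and 0.48 over all windows, and all 181 satellite windows were raised, with a median change of 1.11. Leaving out any 1 library kept all 181 satellite windows raised in both comparisons, but with quantile normalization 132 satellite windows were raised in arid2/3/4 and 125 in epcr1/2. Scaling to a common median moved the median over all windows to -0.30 in arid2/3/4 and -0.05 in epcr1/2, so the changes are relative to the scaling.

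**Figure D2:**
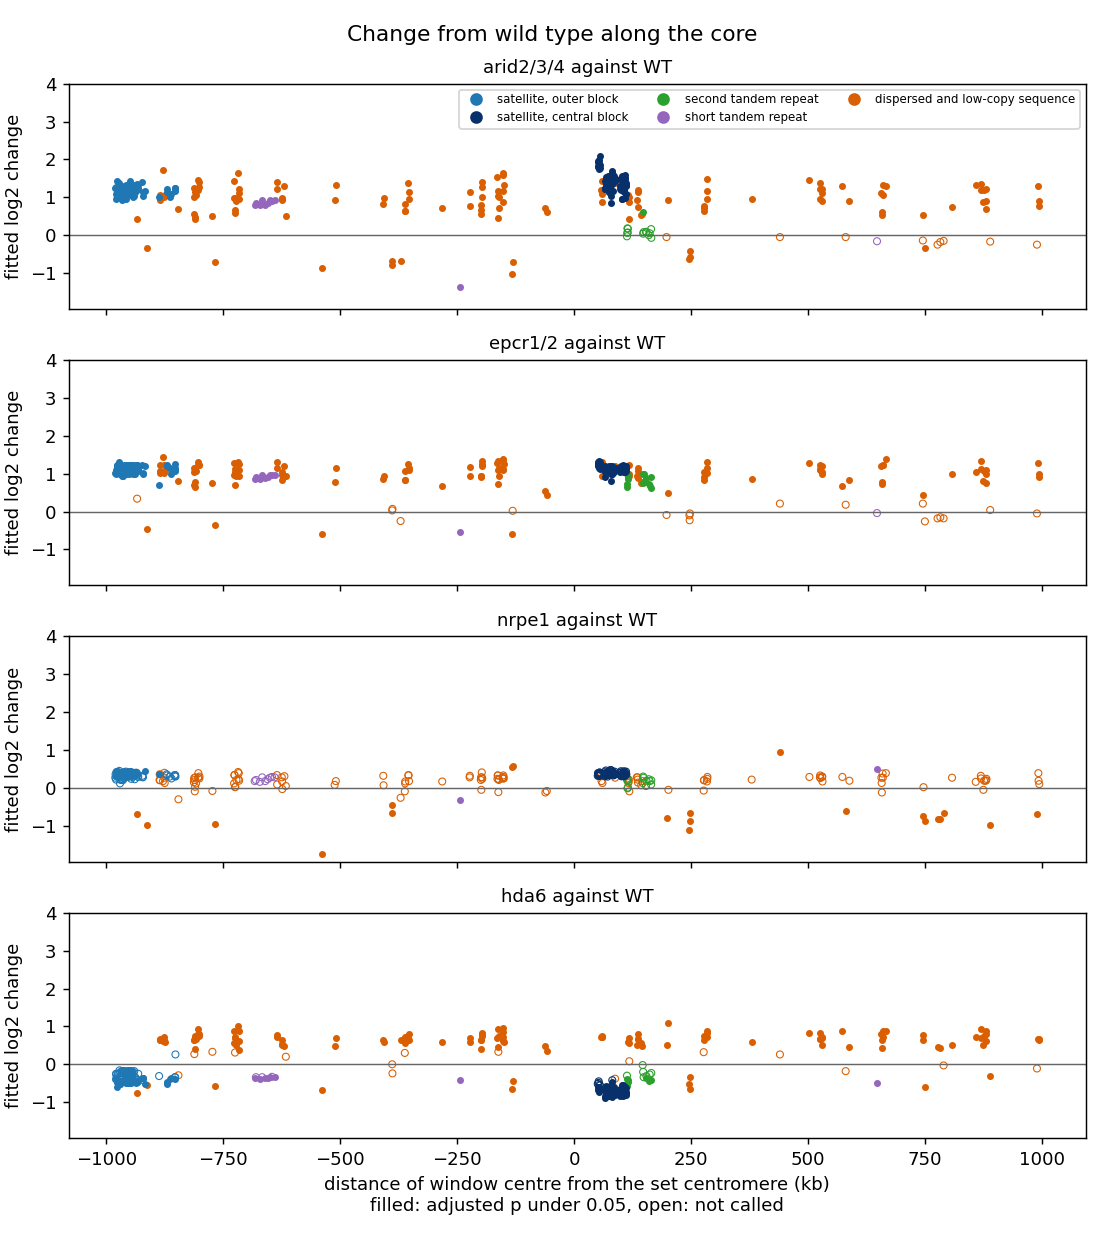
Fitted log2 change against WT of each core window against distance in kb from the set centromere, 1 panel each for arid2/3/4, epcr1/2, nrpe1 and hda6, with filled points for windows called at adjusted p under 0.05. Most windows lie above 0 in arid2/3/4 and epcr1/2, and on both sides of 0 in hda6.

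The window most raised in arid2/3/4 was chr4:3955501-3956000, a central satellite. It scored 1224 and 1047 in WT, 4823 and 5476 in arid2/3/4, 2824 and 3108 in epcr1/2, 669 and 714 in hda6, 1867 and 1143 in nrpe1 and 29 and 2 in nrpd1. The groups of arid2/3/4, epcr1/2, WT and hda6 followed one another without overlap. The change was 2.10 ± 0.28 in arid2/3/4 (adjusted p = 1.4e-12), and arid2/3/4 exceeded epcr1/2 by 0.78 ± 0.28 (0.022). The window most raised in epcr1/2 was chr4:3021001-3021500, in the pseudogene AT4G05638. It scored 163 and 106 in WT, 480 and 546 in epcr1/2, 686 and 585 in arid2/3/4, 288 and 215 in hda6, 201 and 127 in nrpe1 and 5 and 1 in nrpd1. Both epcr1/2 values and both arid2/3/4 values lay above those of every other genotype, and the epcr1/2 change was 1.44 ± 0.19 (adjusted p = 1.7e-12).

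In the second tandem repeat the pair of mutants differed from each other. In epcr1/2, 14 of 14 windows were raised, with a median change of 0.82 and a range of 0.61 to 0.99. In arid2/3/4, 1 of 14 was raised, with a median change of 0.07 and a range of -0.07 to 0.60. Compared directly, 13 of 14 windows were lower in arid2/3/4 than in epcr1/2, with a median difference of -0.70; the other, chr4:4046501-4047000, differed by -0.37 (adjusted p = 0.11). Over the whole core 24 windows (6.9%) were lower in arid2/3/4 than in epcr1/2, against 23.6% of all windows, and 6 (1.72%) were higher, against 6.84%. The higher count became 246 with median scaling and 106 with only the groups compared in the fit, when 22 and 59 were lower; among satellite windows, 5 higher became 172 and 87. Leaving out 1 library, or changing any other setting tried, left 10 to 14 of the 14 windows lower in arid2/3/4. Against WT, median scaling made 8 of the 14 lowered and 1 raised in arid2/3/4.

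The window chr4:4048501-4049000 shows this pattern. It scored 386 and 316 in WT, 354 and 399 in arid2/3/4, 765 and 801 in epcr1/2, 548 and 348 in nrpe1, 296 and 221 in hda6 and 1 and 0 in nrpd1. Both epcr1/2 values exceeded all others, while the arid2/3/4 values overlapped those of WT. The change was 0.99 ± 0.20 in epcr1/2 (adjusted p = 2.6e-06) and 0.08 ± 0.20 in arid2/3/4 (0.72), and arid2/3/4 was below epcr1/2 by -0.91 ± 0.20 (8.7e-05). This repeat is shared with chromosome 1: of its 24-base word copies, a median of 88.3% lay in other cores, and 342 windows of the chromosome 1 core were of the same kind. There, 342 of 342 windows were raised in epcr1/2, 3 in arid2/3/4, and 339 were lower in arid2/3/4 than in epcr1/2. Scores of copies that share reads are not independent.

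**Figure D3:**
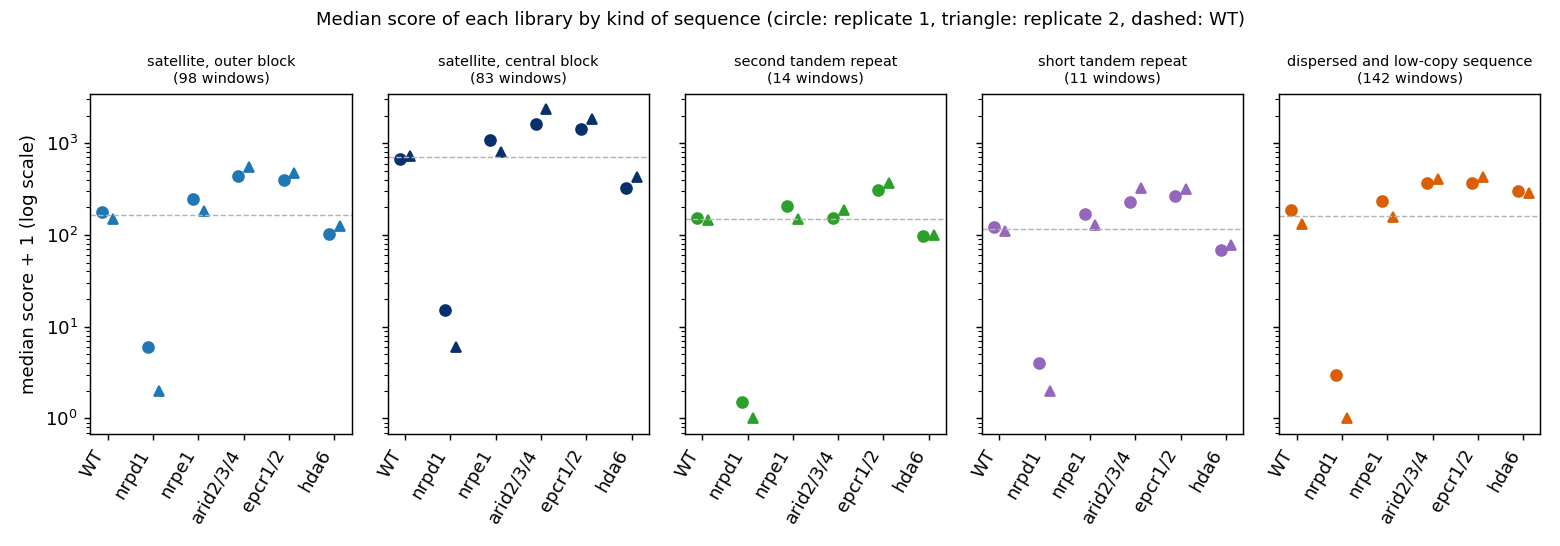
Median score plus 1 over the windows of each kind in each of the 12 libraries, on a log axis, with circles for replicate 1, triangles for replicate 2 and a dashed line at the mean of WT. Only the second tandem repeat shows arid2/3/4 beside WT and epcr1/2 above it.

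In hda6 the core split by kind of sequence. Over the core, 115 windows (33.0%) were raised, against 25.2% of all windows, and 147 (42.2%) were lowered, against 46.4%. The median change was -0.33 in the core and also -0.33 over all windows. With quantile normalization these medians were -0.06 and -0.17, and 134 core windows were raised and 137 lowered; with median scaling 124 were raised and 215 lowered. All 115 raised windows were dispersed sequence, of 142 such windows, while 11 of these were lowered. None of the 181 satellite windows was raised, though 2 were with quantile normalization and 1 with median scaling, and 121 were lowered, with a median change of -0.49. In the central block 76 of 83 were lowered, with a median of -0.71. In the outer block 45 of 98 were lowered, with a median of -0.37, a share and a median near those over all windows (46.4% and -0.33). The constant added to scores before the log shrinks fitted changes more where scores are low. WT medians were 176.5 and 148 in the outer block and 664 and 730 in the central block. As medians of percent of WT, hda6 stood at 53.1 and 77.9 in the outer block, in replicates 1 and 2. It stood at 51.6 and 62.5 in the central block, and at 66.3 and 81.1 over all windows. The blocks were thus close in replicate 1 and apart in replicate 2. Both hda6 replicates were below WT in 175 of 181 satellite windows, and above it in 124 of 142 dispersed windows. The satellite share of the summed core score was 69.7% and 75.5% in WT and 47.1% and 53.6% in hda6. Counts of lowered windows rest on single libraries. The 147 became 15 without replicate 1 of hda6, 48 without replicate 1 of WT, 68 without replicate 2 of hda6 and 93 without replicate 2 of WT. Among satellite windows alone, leaving out 1 library gave 7 to 147 lowered, with medians of -0.59 to -0.40. The 115 raised windows became 66 without replicate 2 of hda6 and 71 without replicate 2 of WT.

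The window most lowered in hda6 was chr4:3966501-3967000, in the central block. It scored 773 and 808 in WT, 331 and 441 in hda6, 1577 and 2444 in arid2/3/4, 1616 and 2260 in epcr1/2, 1280 and 942 in nrpe1 and 15 and 6 in nrpd1. The hda6 values lay below both WT values and the arid2/3/4 and epcr1/2 values above them. The hda6 change was -0.90 ± 0.25 (adjusted p = 0.001). The window most raised in hda6 was chr4:4101501-4102000, in the pseudogene AT4G06752. It scored 203 and 109 in WT, 533 and 335 in hda6, 393 and 338 in arid2/3/4, 267 and 233 in epcr1/2, 205 and 94 in nrpe1 and 4 and 0 in nrpd1. Both hda6 values were above both WT values, with a change of 1.09 ± 0.18 (adjusted p = 7.2e-08). Of the 62 core windows that overlap pseudogenes, 49 (79.0%) were raised in hda6 and 7 (11.3%) lowered. Of all 647 tested windows that overlap pseudogenes, 64.8% were raised and 11.1% lowered, so this is not particular to the core. The median share of word copies in other cores was 57.0% in the dispersed windows raised in hda6, 55.4% in the 16 not called and 3.5% in the 11 lowered.

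The largest dispersed family held 10 core windows between chr4:3173501 and chr4:4770000 and 51 windows elsewhere. Its median score was 305.5 and 205.5 in WT, 2 and 1 in nrpd1, 406 and 282.5 in nrpe1, 619 and 692 in arid2/3/4, 697 and 764.5 in epcr1/2 and 532 and 530 in hda6. All 10 were raised in arid2/3/4, epcr1/2 and hda6, with median changes of 1.21, 1.29 and 0.86, while none was called in nrpe1. The largest satellite family, 71 windows of the outer block, had all 71 raised in arid2/3/4 and in epcr1/2, and 27 lowered and none raised in hda6, a share below the 46.4% lowered over all windows. The next satellite family, 44 windows of the central block, had 44 lowered in hda6, and a central family of 10 had 4. Members of a family share sequence and are not independent. A set of 7 satellite windows of the outer block lies in coding exons of AT4G05612, annotated as protein coding. Of these, 7 were raised in arid2/3/4 and 7 in epcr1/2, and 3 were lowered in hda6, against 38.7%, 52.2% and 46.4% over all windows.

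**Figure D4:**
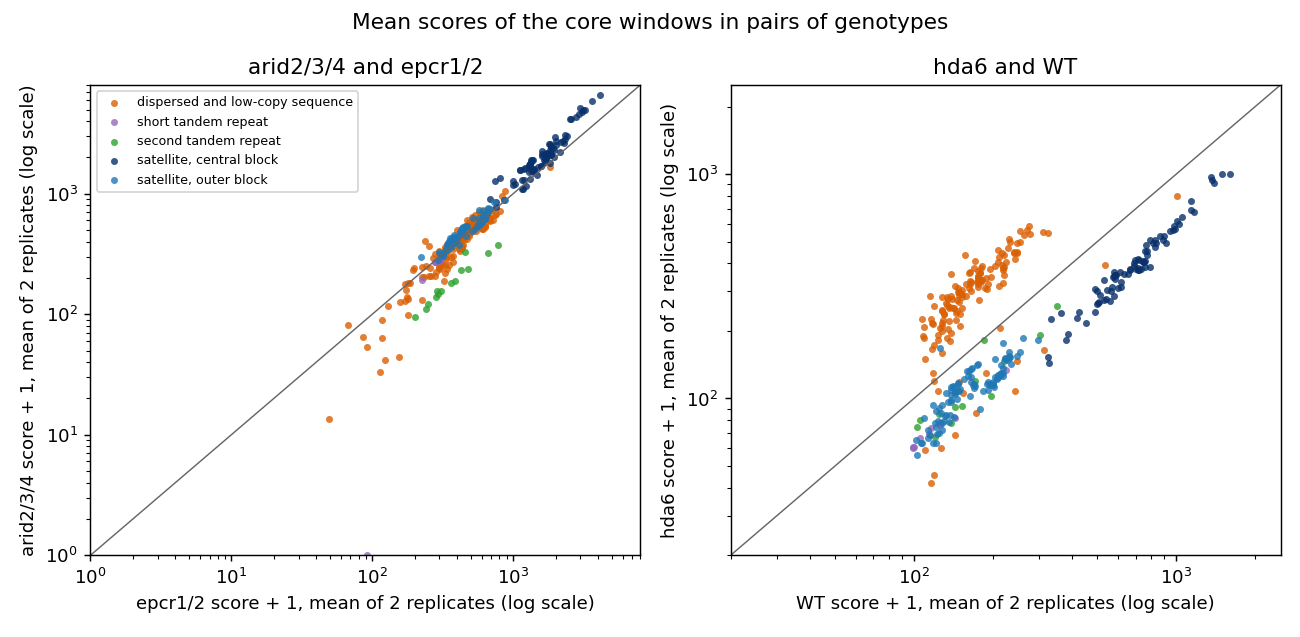
Mean score plus 1 of each core window on log axes, with arid2/3/4 against epcr1/2 in one panel and hda6 against WT in the other; the diagonal marks equal scores. In the hda6 panel dispersed windows lie mostly above the diagonal and satellite windows below it.

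Against hda6 directly, 248 windows (71.3%) were higher in arid2/3/4, against 34.5% of all windows, and 9 (2.59%) lower, against 8.71%. The satellite windows were all higher, 181 of 181, with a median difference of 1.74. Against epcr1/2, hda6 was exceeded in 264 windows (75.9%), against 50.6% of all windows, and epcr1/2 was lower in 6 (1.72%), against 3.58%. The satellite windows were again all higher in epcr1/2, with a median difference of 1.68. Among the 142 dispersed windows, 49 (34.5%) were higher in arid2/3/4 than in hda6 and 8 (5.63%) lower, against 34.5% and 8.71% of all windows. In epcr1/2, 59 (41.5%) were higher than in hda6 and 6 (4.23%) lower, against 50.6% and 3.58%. In these the counts turn with the scaling: after median scaling 27 were higher and 36 lower in arid2/3/4, and 5 were higher and 83 lower in epcr1/2.

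In nrpe1, few core windows were called with the scores as deposited. Raised windows numbered 7 (2.01%), against 1.02% of all windows, and lowered ones 19 (5.46%), against 44.3%. The median change was 0.31 in the core and -0.09 over all windows. Of the 348 windows, 290 were above WT in both replicates, among them 180 of 181 satellite windows. The count of 7 raised windows depends on the scaling, since it was 316 after median scaling and 300 after quantile normalization. It also depends on 1 library, replicate 2 of nrpe1. Of the 19 lowered windows, 18 were dispersed sequence and 13 were isolated. Their 24-base words had a median of 2 genomic copies, against 21.5 in the 322 windows not called, and their median GC content was 30.2%, against 36.4%. The 7 raised windows were 3 outer satellite windows, 3 dispersed windows and 1 short tandem window.

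The window most lowered in nrpe1 was chr4:3360001-3360500, in the pseudogene AT4G06535. It scored 341 and 285 in WT, 50 and 15 in nrpe1, 112 and 152 in arid2/3/4, 160 and 196 in epcr1/2, 145 and 181 in hda6 and 0 in both nrpd1 libraries. Every mutant value lay below both WT values, and nrpe1 had the lowest outside nrpd1. The change was -1.74 ± 0.16 in nrpe1 (adjusted p = 4.2e-27) and -0.87 in arid2/3/4 (1.7e-07). The window most raised in nrpe1 was chr4:4340001-4340500. It scored 164 and 108 in WT, 435 and 259 in nrpe1, 119 and 135 in arid2/3/4, 171 and 167 in epcr1/2, 177 and 180 in hda6 and 1 and 0 in nrpd1. Both nrpe1 values were above all others, with a change of 0.94 ± 0.17 (adjusted p = 9.8e-08).

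Lowered windows were the exception in arid2/3/4. Of its 13 lowered windows, 12 were dispersed sequence, with a median of 1 genomic copy of their words and a median GC content of 27.6%. Over all windows tested, 228 of the 301 mostly single-copy ones (75.7%) were lowered in arid2/3/4. All 3 mostly single-copy windows of the core, by 24-base words, were among the 13. One of these, chr4:3511501-3512000, 116 bp from the pseudogene AT4G06567, scored 173 and 112 in WT, 37 and 50 in arid2/3/4, 131 and 176 in epcr1/2, 72 and 42 in nrpe1, 110 and 102 in hda6 and 2 and 0 in nrpd1. Both arid2/3/4 values lay below WT while the epcr1/2 values overlapped it. The arid2/3/4 change was -0.79 ± 0.13 (adjusted p = 9.5e-09), and arid2/3/4 was below epcr1/2 by -0.87 ± 0.13 (1.1e-09). In chr4:3529001-3529500, in the pseudogene AT4G06571, arid2/3/4 and hda6 lay on opposite sides of WT. It scored 199 and 115 in WT, 67 and 58 in arid2/3/4, 296 and 274 in hda6, 109 and 122 in epcr1/2, 138 and 91 in nrpe1 and 1 and 2 in nrpd1. The hda6 values were above every other and the arid2/3/4 values below all but nrpd1, with a difference of -1.30 ± 0.15 between arid2/3/4 and hda6 (adjusted p = 3.1e-16). Windows low in nrpe1 include chr4:2987001-2987500, 948 bp from AT4G05630, which scored 125 and 126 in WT, 21 and 20 in nrpe1, 66 and 95 in arid2/3/4, 58 and 75 in epcr1/2, 49 and 69 in hda6 and 1 and 0 in nrpd1. Every mutant lay below WT, and the nrpe1 change was -0.97 ± 0.11 (adjusted p = 4.5e-17).

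A mostly unique stretch moved in opposite directions in different mutants. The window chr4:3768001-3768500, 1330 bp from AT4G06634, which encodes a YY1-type zinc finger transcription factor, had 92.9% of its words once in the genome. It scored 116 and 121 in WT, 258 and 177 in nrpe1, 10 and 15 in arid2/3/4, 41 and 56 in epcr1/2, 46 and 43 in hda6 and 0 in both nrpd1 libraries. The nrpe1 values exceeded WT and those of arid2/3/4, epcr1/2 and hda6 were below WT, with no overlap. The change was 0.55 ± 0.12 in nrpe1 (adjusted p = 9.4e-06), -1.03 ± 0.12 in arid2/3/4 (2.8e-16) and -0.60 ± 0.12 in epcr1/2 (1.7e-06). In the adjoining window, chr4:3768501-3769000, the values were 120 and 98 in WT, 239 and 178 in nrpe1, 26 and 38 in arid2/3/4 and 99 and 126 in epcr1/2. The arid2/3/4 values were below WT and the epcr1/2 values overlapped it, with changes of -0.71 (2.9e-07) and 0.02 (0.87).

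The GAA array at chr4:3655501-3656000, in an exon of the transcribed pseudogene AT4G06597, gave the most negative change in arid2/3/4. Of its 500 bases, 492 lay in GAA or TTC runs, and its 24-base words had a median of 1340 genomic copies. It scored 185 and 101 in WT, 0 in both arid2/3/4 libraries, 183 and 0 in epcr1/2, 96 and 94 in nrpe1, 81 and 81 in hda6 and 0 in both nrpd1 libraries. The 2 epcr1/2 libraries lay far apart, at 183 and 0, and the arid2/3/4 libraries were listed at 0. The SE and p-values of this window rest on the trend of spread with score, so its own replicate spread has no separate weight in them. The arid2/3/4 change was -1.36 ± 0.11 (adjusted p = 7.3e-29) and that of epcr1/2 -0.55 (4.5e-06), the latter becoming 0.20 (0.26) without its replicate 2. The other short tandem repeats held the telomere motif in 9 windows at chr4:3217001-3260000, each with 5 to 15 copies of CCCTAAA or TTTAGGG, counting both strands. Of all 4213 windows 8.0% held at least 1 copy, and of the core 7.2%. In these 9, WT scores ran from 97 to 129 in replicate 1 and arid2/3/4 scores from 225 to 240, and epcr1/2 scores from 251 to 288. All 9 were raised in arid2/3/4 and in epcr1/2, with changes of 0.79 to 0.92 and of 0.87 to 0.97. Over all windows 38.7% and 52.2% were raised. In hda6, 6 of the 9 were lowered, against 46.4% of all windows. Their hda6 changes, -0.38 to -0.33, were near the median of -0.33 over all windows. Their WT scores were low, where the constant added before the log shrinks fitted changes more. In the 11 short tandem windows, hda6 medians were 56.7% and 65.0% of WT in replicates 1 and 2, against 66.3% and 81.1% over all windows.

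Single scores at the margins of the sort and of the interval were as follows. The satellite threshold put window chr4:3987501-3988000, at 39.6% identity, with the dispersed windows, and it scored 539 and 531 in WT and 345 and 439 in hda6. The window chr4:3047501-3048000 was the 1 satellite window with both hda6 values above WT, at 177 and 156 against 148 and 102. At the edges, chr4:2919001-2919500 scored 140 and 118 in WT and 367 and 491 in arid2/3/4, and chr4:4894501-4895000 scored 156 and 147 in WT and 338 and 383 in arid2/3/4. Just outside, chr4:2875001-2875500 scored 149 and 139 in WT and 130 and 135 in arid2/3/4, and chr4:4900501-4901000 scored 170 and 101 in WT and 519 and 535 in arid2/3/4. The core windows overlapped 1 annotated miRNA gene, MIR5645b, at chr4:4889501-4890000, which scored 140 and 106 in WT and 55 and 30 in nrpe1, with a change of -0.69 (adjusted p = 3.4e-07).

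**Figure D5:**
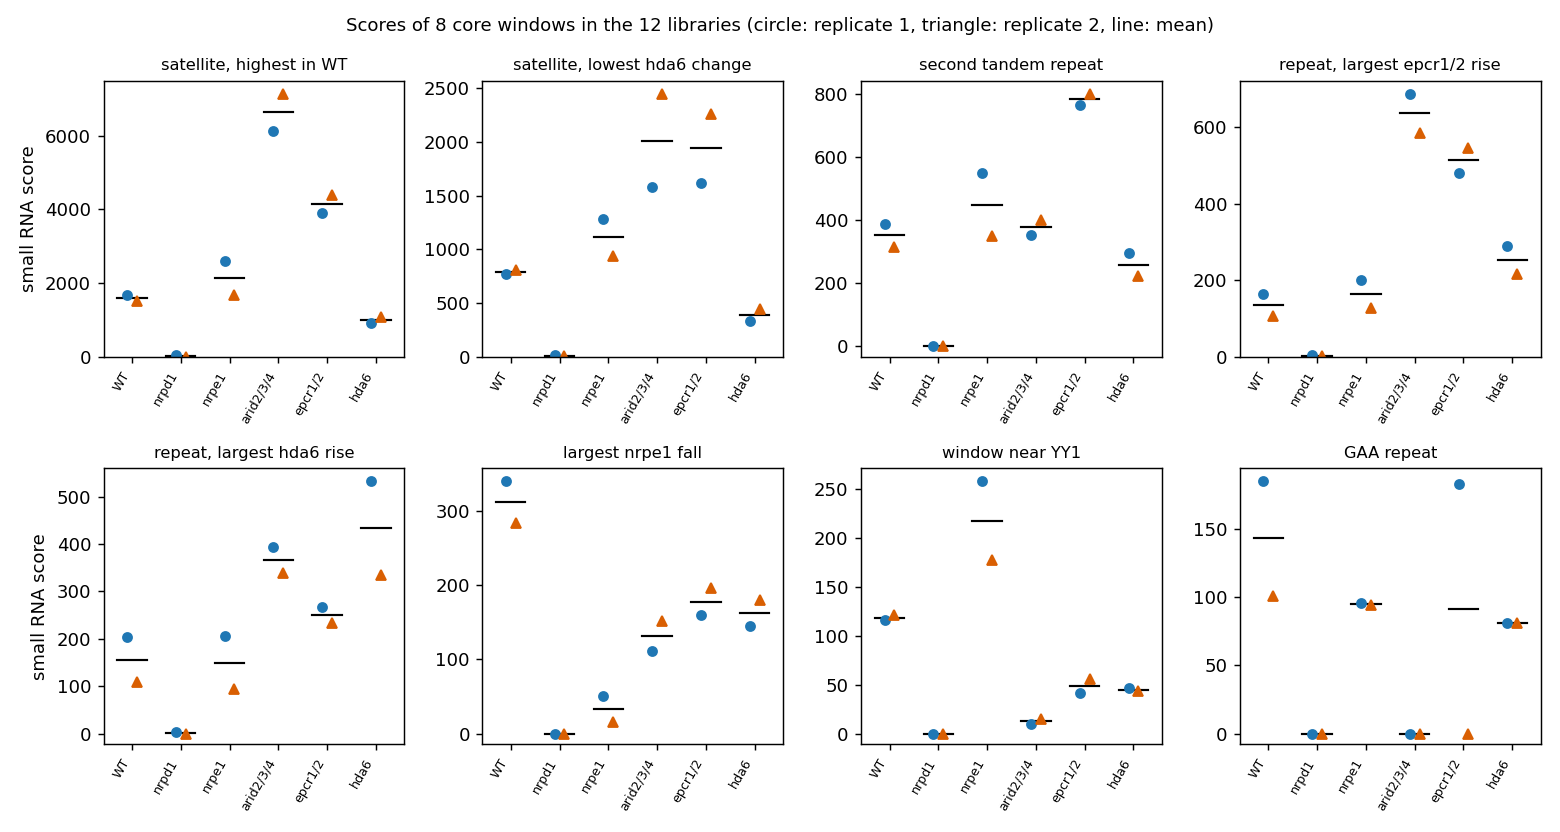
Scores of 8 core windows in the 12 libraries on linear axes, 1 panel per window, points being single libraries. Satellite windows are highest in arid2/3/4 or epcr1/2, and the second tandem repeat window is highest in epcr1/2.

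The other cores were counted by the same kinds. In the dispersed windows of the other cores, 558 of 752 were raised and 44 lowered in hda6, with a median change of 0.58, against 115 and 11 of 142 and 0.64 in chromosome 4. In their satellite windows, 164 of 335 were lowered and none raised, with a median of -0.46; their share lowered, 49.0%, was near the 46.4% over all windows. The arid2/3/4 and epcr1/2 medians for satellite windows were 1.49 and 1.02 in the other cores, against 1.24 and 1.11 here. The direct difference of arid2/3/4 and epcr1/2 in satellite windows had a median of 0.55 in the other cores, with 149 of 335 higher, and 0.15 in chromosome 4, with 5 of 181 higher, a count that rests on the settings given above. Differences between chromosomes were not tested, since copies of these repeats share sequence among them.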

How the data were processed

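Small RNA libraries of whole seedlings, 2 replicates of each of 6 genotypes, were grouped by their titles, also for the hda6 library whose genotype field is misspelled. Whether replicates were separate cultures is not stated in the labels. The spread behind the p-values is then that between these samples alone, pooled over windows, and could be technical. The authors' deposited tables, 1 per replicate, hold a whole-number score for each 500 bp window, treated as a rounded normalized abundance. Reads were mapped with Bowtie 0.12.2 to TAIR10, per the submitters' processing notes. Read sizes, treatment of reads with several places, scaling, depth and the choice of windows were not given in the sources used here, so no counting interval is given. Files count starts from 0, and coordinates are printed counting from 1.

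The members and lists were chosen with earlier results of these data known. Changes were fitted with limma 3.58.1 (R 4.3.3) to log2(score + 89), the pseudocount being the 25th percentile of scores above 0, with a trended prior, all 12 libraries, and replicate as a block because each replicate has its own table. Benjamini-Hochberg adjustment ran over the 4213 windows, with calls at adjusted p under 0.05. There were 5 residual degrees of freedom, and the prior took infinite degrees of freedom. Each SE and p-value thus rests on the trend of spread with score, and a window's own replicate spread has no separate weight. Pairing was checked through deviations of same-numbered libraries, whose correlations ran from -0.067 to 0.639 in 10 pairs, 8 of them over 0.1. The fit was tested on simulated data with normal noise drawn from the same trend of spread and with no replicate effect. Such data cannot show how the fit does for windows that depart from that trend. Sequence, genes and copies of 24-base words came from RefSeq TAIR10.1, which has no class of transposable elements. Windows were named by rule: highest WT scores, the 6 most raised and most lowered called windows per comparison, edges, runs, small RNA genes and extremes of copy number; chr4:3987501-3988000 and chr4:3047501-3048000 were chosen after their values were seen. Alternatives were other pseudocounts, a filter, scalings, prior, libraries and words of 18 bases.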

Additional observations from a re-analysis of the deposited data

Results flagged for a closer look

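The table of replicate 1 listed 152 core windows that the table of replicate 2 did not, and these entered no comparison. Their median score in replicate 1 was 112 in WT, 262 in arid2/3/4, 246 in epcr1/2, 140 in nrpe1, 187 in hda6 and 2 in nrpd1. Scores were above WT in 141 of the 152 windows in arid2/3/4, in 147 in epcr1/2, in 125 in nrpe1 and in 132 in hda6. These values stand on 1 library per genotype, with no replicate check.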

How the results depend on the processing

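Counts of calls in the core moved with the scaling and with single libraries. With no replicate block, the counts stayed within 1.5 times and the pairing changed no call count beyond that; arid2/3/4 had 312 raised windows without the block. Windows lowered in arid2/3/4 numbered 13, with 4 above the lower quartile of mean score and 30 after median scaling; in epcr1/2, 5 became 1, 24 and, after quantile normalization, 12. In nrpe1, the 7 raised became 4 with a pseudocount 10 times smaller, 2 above the quartile, 316 after median scaling, 300 after quantile normalization, 79 without the trend in the prior, and 87 with only the groups compared; the 19 lowered became 9 above the quartile and 11 after quantile normalization. In arid2/3/4 against epcr1/2, the 6 higher became 2 and 13 with the smaller and the larger pseudocount, 246 after median scaling, 33 after quantile normalization, 26 without the trend and 106 with only the groups compared, and the 24 lower became 14 after quantile normalization and 59 with only the groups compared. Against hda6, the 9 lower in arid2/3/4 became 5 above the quartile, 37 and 43 after median scaling and quantile normalization, and the 6 lower in epcr1/2 became 83 and 54. Leaving out each library in turn gave 4 to 261 raised in nrpe1, 66 to 120 raised and 15 to 179 lowered in hda6, 0 to 18 higher and 15 to 27 lower in arid2/3/4 against epcr1/2, and 1 to 7 lower in epcr1/2 against hda6; the lone library of a genotype is then assumed to vary like the others. Of 1642 values of named windows under alternatives, 1555 kept their call, 85 lost it and 2 changed sign. Those were chr4:3655501-3656000 in epcr1/2, which ranged from -1.3 to 0.20 when leaving out libraries, and chr4:4147001-4147500 in nrpe1, at 0.06 after quantile normalization. Small differences between scores cannot be read, since the depth is unknown. The cause of these dependences was not tested.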
